A study of Mus musculus with 3 samples.

Results

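The genes described here are Serpinf1, 5 genes of the small leucine-rich proteoglycan family (Ogn, Omd, Dcn, Lum and Bgn), Cnmd and Wisp2. They are 8 of the 31053 genes counted, and each symbol was found once in all 3 matrices. They are secreted proteins, or in Cnmd a membrane protein whose outer part is released, best known from connective tissue, and they were selected on their measured level in untreated astrocytes, with results of these data known. That level, and any contrast with it, is therefore given as a description. The choice had no numerical threshold, so no gene stands just inside or just outside it.

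Single-cell expression was measured on a 10x Genomics system in methanol-fixed cells of mouse cortical cultures of strain C57BL/6, with 1 library for each of 3 groups. Neural stem cells came from cortex at embryonic day 14.5 and grew as neurospheres with EGF and FGF2, without serum. Untreated astrocytes were plated cells whose astrocyte medium contained 10% serum throughout. For the third group such cells were washed and given MIM. It lacks serum, contains 20 ng/mL of FGF2, and adds a mixture drawn from the amino acids cysteine, glycine, methionine and threonine together with putrescine and S-adenosylmethionine. The labels give every library the age E14.5, and describe astrocytes both from neurospheres and from sorted postnatal cortex, so the source of these astrocytes is not settled, nor are the mixture and the day of collection.

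After filtering, the libraries held 9145, 9818 and 14964 cells (neural stem cells, untreated and MIM-treated astrocytes), with medians of 1379, 5089 and 3156 UMIs per cell. A UMI is a molecular tag that counts an RNA molecule once. Between 25 and 43 cell barcodes were shared by any pair of libraries. A level is given in CPM, the usual scaling of counts to a common total: the UMIs of a gene over all kept cells, relative to all UMIs of the library. They were not scaled by gene length, so levels of different genes are set side by side and not ranked. With 1 library per group there is no replicate check and no test, and every interval is an exact 95% interval for counting error alone.

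Serpinf1 encodes pigment epithelium-derived factor, a serpin that does not inhibit proteases, known for neurotrophic and anti-angiogenic action. Small leucine-rich proteoglycans are secreted core proteins that bind collagen fibrils and growth factors. Ogn (osteoglycin) and Omd (osteomodulin) belong to the keratan sulfate-bearing or related classes and are known from bone and other matrix, while Dcn (decorin), Lum (lumican) and Bgn (biglycan) are the familiar members of fibroblast matrix. Cnmd (chondromodulin) is an angiogenesis inhibitor of cartilage, and Wisp2 (also Ccn5) is a CCN matricellular protein that lacks the C-terminal domain of its relatives.

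On GRCm38 with GENCODE vM21, Omd (chr13:49582462-49592822) and Ogn (chr13:49608046-49624501) are plus-strand neighbours with 15.2 kb between them. Upstream of Omd lie Aspn, after 14.9 kb, and then Ecm2, after a further 11.7 kb, both of the same family. Dcn (chr10:97479609-97518143) and Lum (chr10:97565128-97572703) sit in another family cluster with Kera and Epyc. Serpinf1 is at chr11:75409769-75422701 on the minus strand, Cnmd at chr14:79637690-79662170 on the minus strand, Wisp2 at chr2:163820861-163833146 and Bgn at chrX:73483602-73495933. All are protein-coding genes.

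RefSeq upstream windows (GRCm38.p6) matched 5 of the 8 genes, namely Serpinf1, Ogn, Omd, Bgn and Cnmd. The 4 windows of genes that were abundant in untreated astrocytes are shown 5′ to 3′ in the direction of the gene, to let the reader compare genes that were high in the same library. Each ends just before the RefSeq start, except that of Serpinf1, which was cut 78 bases earlier at its GENCODE start. The Ogn window is chr13:49607765-49608014 (+), that of Omd chr13:49582212-49582461 (+), that of Cnmd chr14:79662184-79662433 (-) and that of Serpinf1 chr11:75422702-75422873 (-). Capitals mark the longest run that the Ogn and Omd windows share.
Ogn: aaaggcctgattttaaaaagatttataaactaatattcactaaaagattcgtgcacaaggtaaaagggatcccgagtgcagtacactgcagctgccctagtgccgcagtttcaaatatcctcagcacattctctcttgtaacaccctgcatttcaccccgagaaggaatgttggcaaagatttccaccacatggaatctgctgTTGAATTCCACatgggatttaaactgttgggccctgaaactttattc
Omd: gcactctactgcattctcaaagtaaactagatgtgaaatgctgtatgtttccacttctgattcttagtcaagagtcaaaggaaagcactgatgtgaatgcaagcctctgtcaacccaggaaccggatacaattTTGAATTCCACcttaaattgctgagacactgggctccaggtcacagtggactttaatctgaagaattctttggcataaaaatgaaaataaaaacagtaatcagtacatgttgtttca
Cnmd: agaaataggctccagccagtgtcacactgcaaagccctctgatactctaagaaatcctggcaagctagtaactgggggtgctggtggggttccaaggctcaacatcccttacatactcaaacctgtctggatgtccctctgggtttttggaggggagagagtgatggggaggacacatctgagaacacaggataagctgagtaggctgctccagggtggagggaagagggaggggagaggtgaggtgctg
Serpinf1: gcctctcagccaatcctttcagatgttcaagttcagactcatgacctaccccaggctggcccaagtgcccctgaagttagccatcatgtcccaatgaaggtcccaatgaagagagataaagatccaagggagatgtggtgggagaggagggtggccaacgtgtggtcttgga

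The capitals show that the longest stretch shared by the neighbours Ogn and Omd was TTGAATTCCAC, 11 bases in the same orientation, starting at −47 in Ogn and −117 in Omd. It occurs, on either strand, in 4 of all 32851 windows of 250 bases, which include these 2. Across the 10 pairs of the 5 windows the longest shared run had 7 to 11 bases, and Serpinf1 and Bgn also shared 11. Each window was also searched on both strands for 3 short motifs. The TATA box core TATAAA was in 12.4% of all windows, and the Ogn window held it on both strands in overlapping matches from −229 to −222. The E-box CAGCTG was in 13.0% of all windows, and lay at −162 to −157 in Ogn and at −102 to −97 in Bgn. The TEAD factor core GGAATG was in 12.6% of all windows, and lay at −86 to −81 in Ogn. The full Serpinf1, Omd and Cnmd windows held none of the 3. The Ogn and Omd windows were AT-rich, with 42.0% and 38.4% G and C against a median of 52.4% over all windows, while Serpinf1 had 51.6% and Cnmd 54.0%.

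The name of the group held only in part in untreated astrocytes. Serpinf1, Ogn, Omd, Cnmd and Wisp2 were plainly present, whereas the 3 classical fibroblast proteoglycans were at or near 0. Lum had 0 UMIs in all 3 libraries, which in untreated astrocytes, at a floor of 3 counts, allows a level of up to 0.0593 CPM and a share of up to 0.0306% of cells. Such a floor limits cells with a UMI, not cells that express the gene. Dcn had 8 UMIs, in 8 of 9818 cells, and Bgn had 105 UMIs, or 2.08 CPM (1.70 to 2.51). Of the small leucine-rich proteoglycans chosen, only Ogn and Omd were therefore above a few CPM.

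Serpinf1 stood at 0.136 CPM in neural stem cells (2 UMIs), 1016 CPM in untreated astrocytes (51424 UMIs, 1008 to 1025) and 2.48 CPM in MIM-treated astrocytes (126 UMIs, 2.06 to 2.95). It was high in the untreated library alone. MIM-treated astrocytes were 411-fold lower than untreated astrocytes (345 to 493).

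Ogn had 0 UMIs in neural stem cells, 9542 in untreated astrocytes (189 CPM, 185 to 192) and 325 in MIM-treated astrocytes (6.38 CPM, 5.71 to 7.12). Its level after MIM was 29.5-fold lower than without it (26.4 to 33.1). Omd had 1 UMI in neural stem cells, 6141 in untreated astrocytes (121 CPM, 118 to 124) and 59 in MIM-treated astrocytes (1.16 CPM, 0.882 to 1.5), a 105-fold lower level after MIM (81.1 to 138). The fold of Ogn was the smallest among the 5 genes above a few CPM, and its interval lies below those of Serpinf1, Omd, Cnmd and Wisp2.

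Omd and Ogn both lie within the span of Cenpp, a kinetochore gene on the opposite strand (chr13:49464023-49652785), and whether the counting used strand is not given in the sources used here. Cenpp stood at 8.99 CPM in neural stem cells, 12.8 CPM in untreated and 23.7 CPM in MIM-treated astrocytes, an order that differs from that of both proteoglycans. Its 132 UMIs in neural stem cells went with 0 of Ogn and 1 of Omd. Whether any reads were counted for the gene on the other strand was not tested.

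Cnmd had 1 UMI in neural stem cells, 4506 in untreated astrocytes (89.1 CPM, 86.5 to 91.7) and 40 in MIM-treated astrocytes (0.786 CPM, 0.561 to 1.07), 113-fold lower after MIM (83.1 to 159). Wisp2 had 1 UMI in neural stem cells, 3417 in untreated astrocytes (67.5 CPM, 65.3 to 69.8) and 4 in MIM-treated astrocytes (0.0786 CPM, 0.0214 to 0.201). With so few UMIs the Wisp2 ratio of 859.5-fold is loose, from 335 to 3156. The ratio of Bgn, 52.8-fold lower after MIM, rests on 2 UMIs and has an interval from 14.3 to 442.

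**Figure D1:**
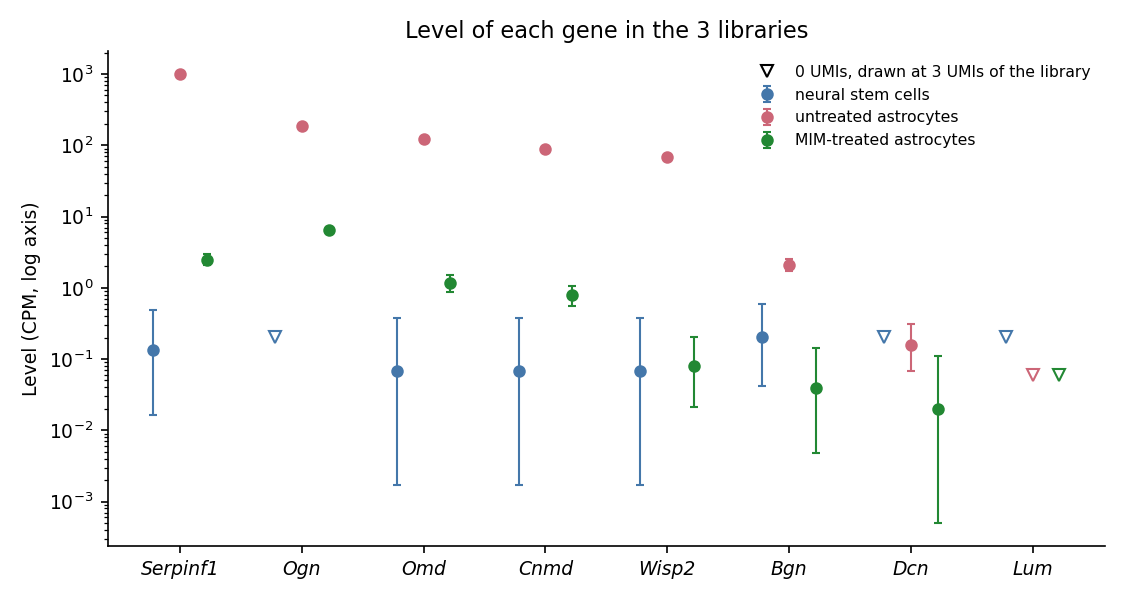
Level of each of the 8 genes (CPM, log axis) in the 3 libraries, with exact 95% counting intervals. Open triangles stand at the level of 3 UMIs where a library had 0. The 5 genes on the left stood between 67.5 and 1016 CPM in untreated astrocytes and at 6.38 CPM or less in both other libraries.

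Genes at 50 CPM or more in either library of a contrast were called higher or lower at a log2 ratio, with 1 CPM added, of at least 1 in size. By this rule 5 of the 8 genes were lower in MIM-treated than in untreated astrocytes (Serpinf1, Ogn, Omd, Cnmd and Wisp2), and the other 3 did not reach 50 CPM. The background is 17.5% of 2895 genes called lower. The same 5 were higher in untreated astrocytes than in neural stem cells, where 31.2% of 3192 genes were called higher. Both counts follow from how the genes were chosen and are not read further.

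The comparison of MIM-treated astrocytes with neural stem cells does not use the level the genes were chosen for. None of the 8 genes reached 50 CPM there (the highest was Ogn, at 6.38 CPM), so none could be called. The background is 20.3% of 2830 genes called higher (575) and 16.2% lower (458), and nothing is read from it for these genes. That balance moved with the scaling, to 1121 higher and 242 lower with TMM and 329 and 834 with totals that leave out Malat1. At these low levels Ogn was at least 31.3-fold higher in MIM-treated astrocytes, against a floor of 3 UMIs in the neural stem cell library. Serpinf1 was 18.2-fold higher (4.93 to 152), Omd 17.0-fold (2.94 to 684) and Cnmd 11.5-fold (1.96 to 467), each against 1 or 2 UMIs. Wisp2 stood at 1.15-fold with an interval from 0.114 to 56.8, so no difference was detectable at this depth.

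Relative to Serpinf1, the UMIs of Ogn, Omd and Cnmd did not keep their proportions after MIM. For every 100 UMIs of Serpinf1 there were 18.6 UMIs of Ogn in untreated astrocytes (18.2 to 19.0) and 258 in MIM-treated astrocytes (209 to 319). The same number was 11.9 and 46.8 for Omd, 8.76 and 31.7 for Cnmd, and 6.64 and 3.17 for Wisp2, whose interval after MIM ran from 0.852 to 8.33. The intervals of both libraries do not overlap for Ogn, Omd and Cnmd. All these ratios share Serpinf1, itself 411-fold lower after MIM, and the untreated level that the genes were chosen for. They are thus a description. Omd and Cnmd, 105-fold (81.1 to 138) and 113-fold (83.1 to 159) lower after MIM, had folds with overlapping intervals. Of 520 MIM-treated cells with a UMI of any of the 8 genes, 1 had a barcode also found in the untreated library. Among all 14964 MIM-treated cells 43 had such a barcode, so nothing is read from this count. All 126 MIM-treated cells with Serpinf1 held exactly 1 UMI of it, and the part of free RNA was not tested.

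Shares of cells were compared after thinning each cell to 1000 UMIs, which left out 1457, 351 and 973 cells in the order above. Serpinf1 was then found in 48.2% of untreated astrocytes (47.2 to 49.2), 0.172% of MIM-treated astrocytes (0.110 to 0.255) and 0 of 7688 neural stem cells, which at a floor of 3 cells allows up to 0.0390% of cells with a UMI. Before thinning, the untreated share was 77.0% and the MIM-treated share 0.842%. Ogn was found in 16.2% of untreated (15.5 to 17.0) and 0.550% of MIM-treated cells (0.435 to 0.687) after thinning, and in 51.1% and 2.06% before it.

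Omd was found in 11.4%, Cnmd in 7.92% and Wisp2 in 5.28% of thinned untreated cells, and in 0.0929%, 0.0572% and 0.00715% of MIM-treated cells. Before thinning, the untreated shares were 40.6%, 24.1% and 14.0%. No cell class of the untreated library was known to lack these genes, so the share that free RNA alone would give there was not measured. The neural stem cell and MIM-treated shares come from other libraries with their own free RNA.

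**Figure D2:**
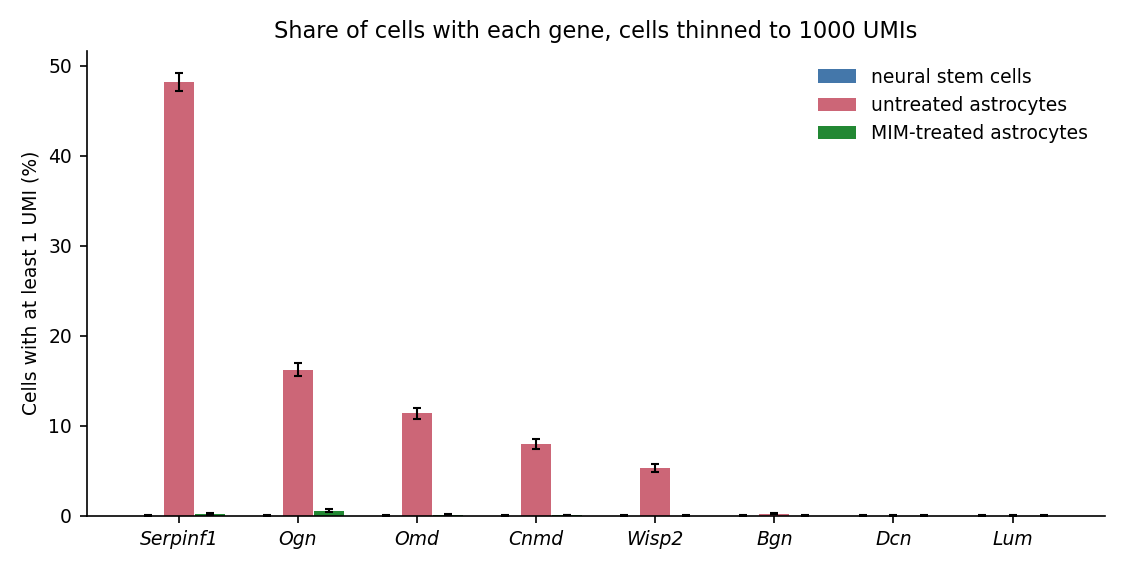
Share of cells with at least 1 UMI of each gene after thinning to 1000 UMIs per cell, in the 3 libraries, with exact binomial 95% intervals. Untreated astrocytes range from 48.2% for Serpinf1 to 5.28% for Wisp2 among the 5 abundant genes, and the bars of both other libraries lie at or below 0.550%.

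Within untreated astrocytes the genes were spread over cells in different ways. The following values use 9141 cells thinned to 2000 UMIs, leaving out 677 shallower cells. Serpinf1 had a mean of 1.90 UMIs per cell and a largest value of 23, and 36.4% of cells had none, where a Poisson spread with the same mean gives 14.9%. Its Fano factor (variance over mean, 1 for a Poisson spread) was 3.03.

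Ogn and Omd had Fano factors of 1.28 and 1.16, at means of 0.385 and 0.248 UMIs per cell. Wisp2 had a mean of only 0.138 but a Fano factor of 2.36, with up to 8 UMIs in a cell. Cnmd had a mean of 0.195 and a Fano factor of 1.71. Since the means differ, these factors do not rank the genes by how unevenly cells held them. Cells without a UMI were 91.7% for Wisp2 against 87.1% under the Poisson spread, and 79.4% for Omd against 78.0%.

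**Figure D3:**
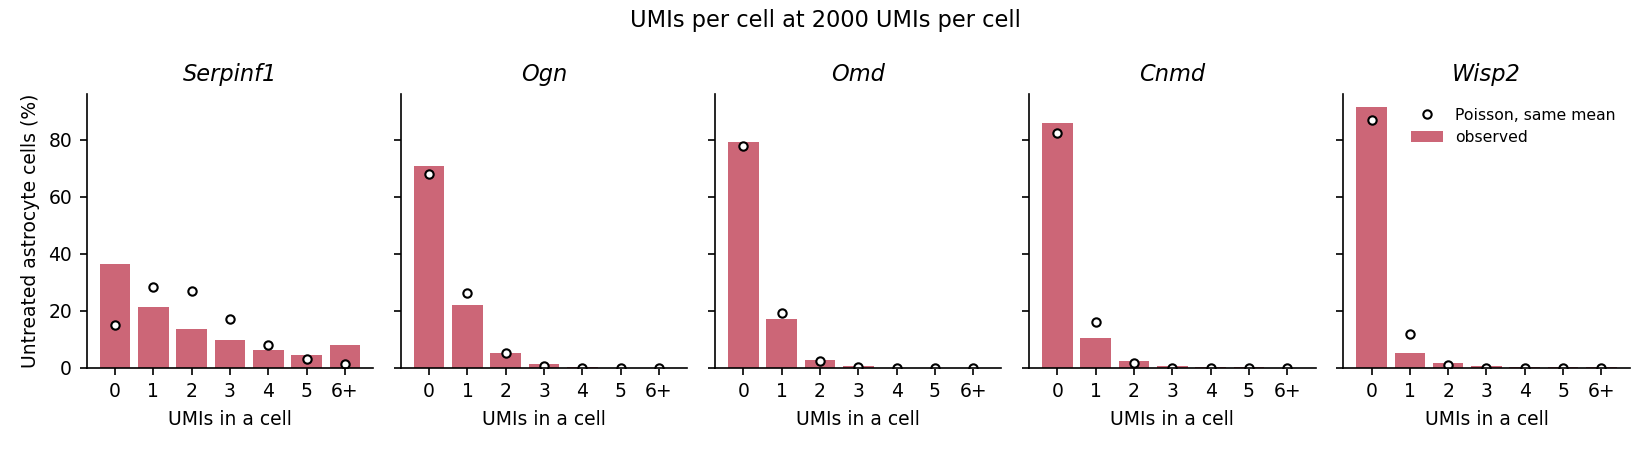
Untreated astrocyte cells (%) by their number of UMIs of each gene, after thinning to 2000 UMIs per cell. Bars are observed cells and open circles a Poisson spread with the same mean. Cells at 0 were 36.4% against 14.9% for Serpinf1 and 79.4% against 78.0% for Omd, at means of 1.90 and 0.248 UMIs per cell, so the gaps are not ranked.

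Whether the genes sat in the same cells was read from the number of cells with both genes, divided by the number that the product of their separate shares gives. Of the 28 pairs, 14 had at least 5 expected cells. The ratio cannot exceed 1 over the larger share. A gene in many cells, such as Serpinf1 in 63.6%, thus caps its ratios, and their sizes are not ranked across pairs. All 6 pairs among Ogn, Omd, Cnmd and Wisp2 were found together more often than the product, with intervals above it. The intervals of Serpinf1 with the same 4 genes included the product or lay below it.

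Ogn and Omd, the neighbours on chromosome 13, were found together in 642 cells where 549 were expected, a ratio of 1.17. The ratio was 1.26 for Ogn and Cnmd (466 against 371 cells), 1.37 for Ogn and Wisp2 (302 against 219.8) and 1.31 for Omd and Cnmd (344 against 263). Omd and Wisp2 had 1.25 (194 against 156), and at 1000 UMIs, where it was 1.20, its interval included the product. At that depth Ogn and Omd had 1.34.

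Cnmd and Wisp2, genes of different families on different chromosomes, had a ratio of 1.66, with 175 cells against 105. Besides this pair, only Omd and Bgn among the 14 passed a ratio of 1.5, with 14 cells against 9.08, and there the interval included the product. Bgn and Wisp2 had 11 cells against 3.63, a ratio of 3.03 with an interval above the product, but fell short of 5 expected cells. In the level of Wisp2, cells with Cnmd had a mean of 0.250 UMIs (0.223 to 0.279) and cells without it 0.119 (0.112 to 0.127). These intervals assume a Poisson spread, whereas the Fano factor of Wisp2 was 2.36, so they are too narrow for the spread between cells.

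Serpinf1 and Cnmd were found together less often than the product, in 679 cells against 811, a ratio of 0.837. The odds ratio compares the odds of 1 gene in cells with and without the other, and the shares do not cap it. It was 0.606 here, 1.34 for Ogn and Omd and 2.00 for Cnmd and Wisp2. Cells with Cnmd had a mean of 1.45 Serpinf1 UMIs (1.38 to 1.52) and cells without it 1.97 (1.94 to 2.01). Serpinf1 was found in 53.3% of the former and 65.3% of the latter. Its ratios with Ogn (0.978), Omd (0.987) and Wisp2 (0.947) had intervals that included the product. Its mean level was still lower in cells with Wisp2, at 1.64 UMIs (1.55 to 1.73) against 1.92 (1.89 to 1.95). For Ogn the means were 1.81 (1.76 to 1.86) with it and 1.94 (1.90 to 1.97) without it. For Omd they were 1.83 (1.77 to 1.89) and 1.92 (1.89 to 1.95). The intervals of these means assume a Poisson spread, whereas the Fano factor of Serpinf1 was 3.03. They are thus too narrow for the spread between cells, and the small gaps for Ogn and Omd are not read as differences. On a log2 scale the correlation of any pair of the 5 genes over 9141 cells of this 1 library lay between −0.09 and 0.09. Ogn, Omd, Cnmd and Wisp2 had means of only 0.138 to 0.385 UMIs per cell. Such low counts hold correlations down, so they do not measure the size of these departures.

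**Figure D4:**
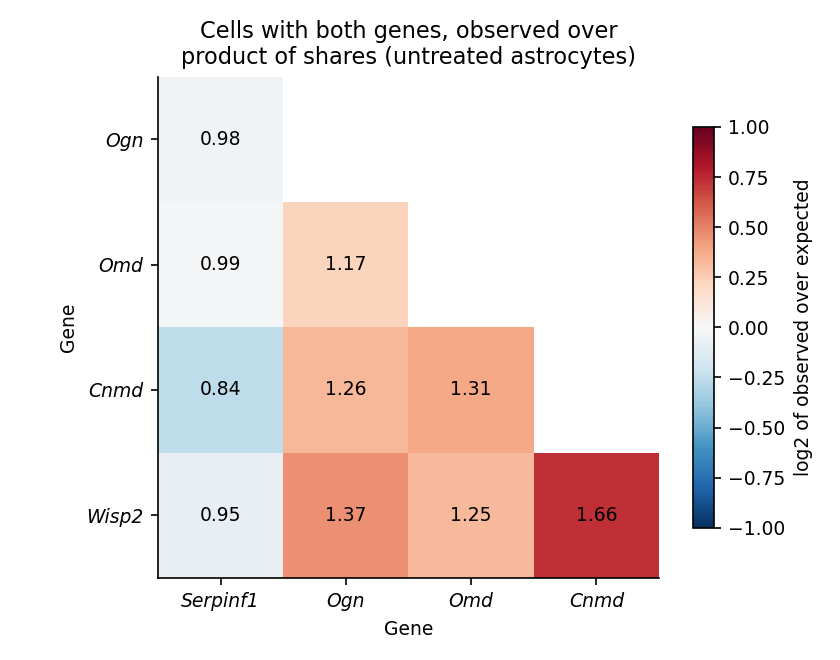
Cells with both genes of a pair, as observed over the product of their shares, in 9141 untreated astrocytes at 2000 UMIs. Numbers are the ratios and colour is their log2. The 4 pairs of Serpinf1 range from 0.84 to 0.99 and the other 6 from 1.17 to 1.66. The share of cells with a gene caps its ratios, so their sizes are not ranked across pairs.

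Counting all 8 genes, a cell had a mean of 1.36 of them detected. None was detected in 16.4% of cells, where independent genes with these shares give 16.1%, and exactly 1 in 44.0% against 43.0%. At the upper end, 4 were detected in 159 cells against 101 and 5 in 12 cells against 4.49. No cell had 6. Median depth before thinning was 4807 UMIs in cells with none and 5225 in cells with 3 or more, and its part in these counts was not tested.

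Clusters of untreated astrocytes, made without these 8 genes, gave another view, and are called by number. They are a description, since clusters and levels come from the same cells. Of 7 clusters, 6 had at least 100 cells. Serpinf1 was highest in clusters 6 and 2, at 1850.2 CPM (1737 to 1969) and 1846 CPM (1798 to 1895), and lowest in cluster 3 at 746 CPM (722 to 771), a range of 2.48-fold. Ogn varied least, by 1.79-fold, from 224 CPM in cluster 1 to 125 CPM in cluster 2. Omd ranged 2.61-fold, from 134 CPM in cluster 1 to 51.3 CPM in cluster 4, whose cells had a median of only 753 UMIs; without the shallow clusters 4 and 6 its range was 2.13-fold.

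Wisp2 ranged most, by 29.8-fold. It stood at 119 CPM (114 to 124) in cluster 1, led by the contractile genes Tagln and Acta2 and by Wisp2 itself, at 27.6 CPM (25.3 to 30.0) in cluster 5, led by genes that include the astrocyte markers Gja1 and Gfap, and at 3.99 CPM (2.06 to 6.98) in cluster 2, led by Crybb1, Chga and Olfml3. Cnmd ranged 7.34-fold, from 105 CPM in cluster 5 to 14.3 CPM in cluster 2. Cluster 2, with 491 cells, thus had Serpinf1 near its highest and Cnmd and Wisp2 at their lowest of the 6 clusters, while its Ogn level (113 to 138) overlapped those of clusters 4 and 6. In all, 4 of the 5 abundant genes ranged at least 2-fold. The range, and the order of the genes by it, depends on how finely cells are divided. With 4 clusters of at least 100 cells, at resolution 0.3, that of Wisp2 was 2.18-fold and that of Cnmd 2.24-fold. Serpinf1 (2.69-fold) and Omd (2.36-fold) then ranged more. At resolution 1.0 Wisp2 again ranged most, by 17.8-fold.

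**Figure D5:**
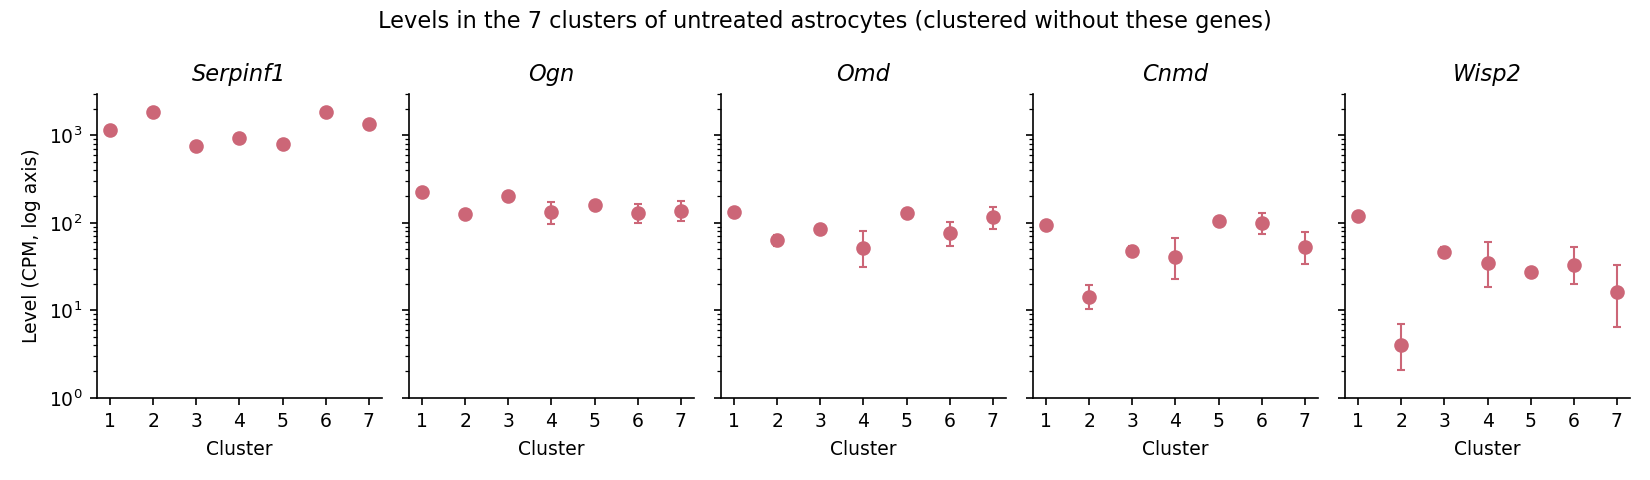
Level of the 5 abundant genes (CPM, log axis) in each of the 7 clusters of untreated astrocytes, with exact 95% counting intervals; cluster 7 has 78 cells. Ogn ranges by 1.79-fold over the 6 clusters of at least 100 cells, while Wisp2 goes from 119 CPM in cluster 1 to 3.99 CPM in cluster 2.

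The pairs were also counted within the 2 large clusters. Within cluster 1 Cnmd and Wisp2 had a ratio of 1.73 (139 cells against 80.3), and within cluster 5 they had 1.24 (29 against 23.3) with an interval that included the product. Serpinf1 and Cnmd stayed below the product in both, at 0.828 and 0.871. Serpinf1 and Wisp2 were below it in cluster 1, at 0.895, and at 1.01 in cluster 5 with the product included. Ogn and Cnmd stayed above it in both, at 1.22 and 1.28. Omd and Wisp2, at 1.13 and 1.30, had intervals that included the product in both.

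The labelled cell type was checked against 13 astrocyte markers, of which 10 reached 10 CPM in untreated astrocytes and 0 were absent. The list as a whole does not set that library apart, since it summed to 2409 CPM there, 1189 CPM in neural stem cells and 1325 CPM after MIM. Against neural stem cells, Gfap (271 against 1.16 CPM), Aqp4 (566 against 11.9 CPM) and Aldoc (895 against 60.6 CPM) were higher in untreated astrocytes. Lower there were S100b (11.8 against 31.0 CPM), Fgfr3 (6.09 against 33.6 CPM) and Cldn10 (4.07 against 13.9 CPM). Of 16 markers of fibroblasts and meninges, summed to 88.4 CPM there against 12.6 CPM in neural stem cells and 12.9 CPM in MIM-treated astrocytes, 10 were under 1 CPM. The defining collagens Col1a2 and Col3a1 and the meningeal gene Aldh1a2 were at 0, and Islr gave 56.2 CPM of the sum. Also above neural stem cells were Pcolce (15.7 against 1.23 CPM), Mfap5 (6.78 against 0.0681 CPM), the meningeal gene Foxc1 (6.11 against 2.72 CPM) and Col1a1 (2.08 against 0.953 CPM). Fbln1 was below them (1.25 against 5.17 CPM). Of 15 cartilage and bone markers 13 were under 1 CPM, with Acan, Matn1, Col10a1 and Sp7 at 0, and Pth1r gave 115 of the 127 CPM. Endothelial markers summed to 1.38 CPM and microglial and macrophage markers to 0.889 CPM. The 7 markers of ependyma and choroid plexus summed to 51.3 CPM, against 2.79 CPM in neural stem cells and 7.88 CPM after MIM. Of these 5 were under 1 CPM, and Folr1 (27.2 CPM) and Foxj1 (22.8 CPM) gave most of the sum.

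At 2000 UMIs, any fibroblast or meningeal marker was found in 16.1% of cells with Ogn (14.7 to 17.6) and 15.9% of cells without it. For Serpinf1 these shares were 16.8% and 14.6%, and for Wisp2 15.6% and 16.0%. Any cartilage or bone marker was found in 21.3% of cells with Serpinf1 (20.2 to 22.3) and 17.4% without it (16.1 to 18.7). Wisp2 had the opposite order, with 16.0% (13.5 to 18.8) and 20.2% (19.3 to 21.1), and the intervals overlapped for Ogn, Omd and Cnmd. Markers of pericytes and smooth muscle, mostly Acta2, were found in 7.42% of cells with Wisp2 (5.65 to 9.52) and 3.88% of cells without it (3.47 to 4.31). For Ogn these shares were 5.19% (4.37 to 6.10) and 3.75% (3.30 to 4.24). The intervals overlapped for Serpinf1, Omd and Cnmd. Any part of such cells in the Wisp2 and Ogn patterns was not tested.

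The shares of cells with an astrocyte marker differed by gene and by marker. The water channel gene Aqp4 was found in 67.5% of cells with Cnmd (64.9 to 70.1) and 56.2% of cells without it (55.1 to 57.3). Gfap, the astrocyte intermediate filament, was found in 33.8% and 27.7%. For Serpinf1 the order was the other way, with Gfap in 27.4% of cells with it (26.2 to 28.5) and 30.5% of cells without it (29.0 to 32.1), although the former were deeper before thinning (5500 against 4804 UMIs). For Ogn, Gfap was found in 26.5% of cells with it (24.8 to 28.2) and 29.3% of cells without it (28.2 to 30.5). Aqp4 had the opposite order for Ogn, in 60.3% of cells with it (58.4 to 62.1) and 56.7% without it (55.5 to 57.9). Cells with Wisp2 had Aldoc in 67.5% against 75.7% of cells without it, and Gja1, a gap junction gene, in 9.67% against 13.2%, but Aqp4 in 64.6% against 57.1%.

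The genes whose pattern over cells was most like that of Serpinf1, among 3830 genes found in at least 5% of cells, were the secreted protease gene Prss23 (r = 0.23), the growth factor gene Ptn (0.18), Ctnnbip1 (0.17), Fbxo2 (0.17) and the BMP antagonist gene Nog (0.16). For Ogn they were Clu, encoding the chaperone clusterin (0.11), Igfbp2 (0.10), Reep5 (0.09), A2m (0.08) and Prdx5 (0.08). Fbxo2 was among the most alike for Serpinf1 and the least alike of all ranked genes for Ogn (−0.16). These are weak correlations across the 9141 cells of 1 library, which share its depth and free RNA, and are given as a description.

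The few MIM-treated cells that held these genes were 520, or 3.48%, and they were deeper than the rest, with a median of 4481 against 3106 UMIs. At 2000 UMIs Clu was found in 66.3% of them (61.9 to 70.4) and in 45.7% of the cells without these genes (44.8 to 46.7), and the astrocyte enzyme gene Aldoc in 54.3% and 44.8%. Gfap was in 0.202% and 0.728%, with intervals that overlap. Ogn was highest, at 9.38 CPM (8.06 to 10.9), in a cluster of 4692 cells led by Aldoc and Sparcl1, and lowest, at 1.38 CPM (0.507 to 3.01), in a shallower cluster led by Gm813 and Lhfpl3. Serpinf1 and Ogn were found together in 4 MIM-treated cells, where 2.60 were expected.

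Related genes were counted in the same contrast of MIM-treated with untreated astrocytes, at 10 CPM or more in either library. At that minimum 11.2% of 6980 genes were called higher and 19.1% lower, and their median log2 ratio was −0.20. A gene that reached the minimum only through 1 library had to stand higher in it, so no count or median of a list is read as support. Of 12 other small leucine-rich proteoglycan genes, 2 reached it, both only through the untreated library. Fmod (fibromodulin, which binds collagen fibrils) had 29.6 CPM in untreated astrocytes, 0.0589 CPM after MIM and 0 in neural stem cells. Prelp, a basement membrane and matrix proteoglycan, had 18.1, 1.28 and 1.29 CPM in that order.

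Family neighbours on the chromosomes differed in level. In untreated astrocytes Ecm2 stood at 5.24 CPM and Aspn, which lies between Ecm2 and Omd, at 0.0395 CPM (2 UMIs). Kera and Epyc, next to Lum, had 0 UMIs in every library. Of the 4 genes of the chromosome 13 cluster, Omd and Ogn stood above 10 CPM in untreated astrocytes and Ecm2 and Aspn below it, and none of the 4 genes of the chromosome 10 cluster passed 0.158 CPM.

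Of 13 other serpin genes, 4 reached 10 CPM, Serping1 only through the untreated library. Serpine2, a protease inhibitor of glia, was higher after MIM, at 2019 against 415 CPM, and 3 were lower: the complement C1 inhibitor gene Serping1 (11.9 to 0.589 CPM), the collagen chaperone gene Serpinh1 (153 to 52.7 CPM) and Serpinb6a (64.6 to 14.5 CPM). The median log2 ratio of the 4 was −1.80. The serpins thus did not share a direction. Of 6 genes proposed as Serpinf1 receptors 5 reached 10 CPM, with a median of −0.74. Plxdc2 (55.5 to 9.23 CPM) and the lipase gene Pnpla2 (40.7 to 8.37 CPM) were lower and reached the minimum only without MIM, and Rpsa, a ribosomal protein with many near-identical copies that make its value uncertain, was higher (513 to 1671 CPM).

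Of 5 other CCN genes 2 reached 10 CPM, both only through the untreated library. Ctgf had 33.2 against 0.216 CPM and Cyr61 31.4 against 1.00 CPM. Of 9 genes that share the BRICHOS domain of Cnmd, 4 reached it, 2 of them in both libraries. Those 2, Itm2c (795 to 258 CPM) and Itm2b (2887 to 1374 CPM), were called lower, Itm2b at a log2 ratio of −1.07. Bricd5 reached the minimum only after MIM (0.0988 to 16.7 CPM). The median of the 4 was −0.86.

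Of 16 genes that build proteoglycan sugar chains, 5 reached 10 CPM, 0 were called lower and 1 higher. These 5 are too few to set against the shares over all genes. Not called were Dsel, B3galt6 and B3gat3, at 2.00-, 1.79- and 1.63-fold lower after MIM, and Chpf (12.9 to 12.1 CPM). The median of the 5 was −0.69. The higher gene was Xylt1, which starts the chain and reached the minimum only after MIM, at 24.2 CPM after MIM and 2.35 CPM without it. Of 22 collagens and fibril partners 5 reached 10 CPM, 3 of them only through the untreated library, among them Thbs1 (37.4 to 0.255 CPM) and the procollagen enhancer gene Pcolce (15.7 to 1.65 CPM). The other 2 reached it in both libraries and were lower after MIM, one of them Sparc (3114 to 296 CPM).

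Of 21 TGF-beta and BMP genes 9 reached 10 CPM, 8 of them lower and 0 higher. Of the 7 that reached it in both libraries, 6 were lower, among them Id1, Id2, Id3 and Id4. No share over all genes was computed for genes at 10 CPM in both libraries, so this count is not read further. The median of the 9 was −3.33. The BMP-responsive genes Id3 (1378 to 35.9 CPM) and Id1 (328 to 10.9 CPM) were lower, as was Nog (152 to 2.71 CPM). Of 13 Wnt genes 3 reached it, with 1 higher (Wnt5a, which reached it only after MIM), 1 lower (the antagonist gene Sfrp1, 139 to 21.3 CPM) and a median of 0.44.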

How the data were processed

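The deposited matrices hold UMI counts, produced by the authors' Cell Ranger 3.0.2 run on a prebuilt mm10 reference, per the labels' protocols. The submitters' processing notes also name Seurat 3.1.1, with no stated role. Gene positions are GENCODE vM21 on the same build.

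Cells with at least 200 genes and at most 20% mitochondrial UMIs were kept (12, 7 and 13 removed). Scrublet called 3 of 9818 untreated astrocytes, so it did not work, and doublets were kept. An alternative dropped the 8% of cells (785) that scored highest.

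Clustering (scanpy 1.11.5, igraph 0.11.9) used 2000 variable genes less those among the 8, 30 components, 15 neighbours and Leiden resolution 0.5. Intervals came from scipy 1.17.1. Methods were tested on simulated data. TMM came from edgeR 4.0.16. Alternatives were other scalings, a 10 CPM minimum, a pseudocount of 10 CPM, stricter cell filters, other thinning depths and other clusterings.

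The genes and lists were chosen with earlier results of these data known. Named genes were the 8, the 5 most correlated with Serpinf1 and with Ogn, the cell type markers, and up to 3 per direction of each list. Which related genes are printed beyond these was decided after seeing values.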

Additional observations from a re-analysis of the deposited data

How the results depend on the processing

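The 5 genes called lower after MIM and the 5 called higher in untreated astrocytes than in neural stem cells were the same counts under every scaling, filter and pseudocount tried. Over these settings the log2 ratio of MIM-treated over untreated astrocytes lay between −8.30 and −6.36 for Serpinf1 and between −4.87 and −3.60 for Ogn; TMM shifted the median of all tested genes in that contrast by 0.24. The cluster count of genes ranging at least 2-fold was 4 or 5. Numbers over all genes moved more. With a 10 CPM minimum, 780 genes were higher and 1335 lower after MIM, 1913 higher and 1990 lower in untreated astrocytes than in neural stem cells, and 911 higher and 1652 lower between MIM-treated astrocytes and neural stem cells (as MIM over stem cells), since more genes were tested. In the last contrast TMM, which shifted the median log2 ratio by 0.40, gave 1121 higher and 242 lower, and totals without Malat1, which shifted it by −0.31, gave 329 higher and 834 lower. The mean number of genes detected per cell was 0.893 at 1000 UMIs and 1.96 at 4000, as fewer or more UMIs were kept. The number of pairs at a ratio of 1.5, 2 in all, was 1 with another random seed, where Omd and Bgn fell to 1.32, and 0 within cluster 5; both alternatives were chosen after seeing the data, and the cause was not tested. Of 437 other values recomputed, 52 moved, by more than their counting interval (against 0 UMIs, by over 1 on the log2 scale) or, for counts of list genes, by over 1.5 times, and 0 of the called values changed sign. The depth of the neural stem cell library, whose thinned cells allow a share with a UMI of up to 0.0390% at 0 UMIs, limits what can be said of low levels there. No paired analysis was possible because each group has 1 library.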
